A study of Triticum aestivum with 58 samples.

Results

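The 200 genes described here were the most abundant root-restricted transcripts of wheat seedlings outside the 95 root growth genes that the study listed. A gene was a member when its median over the leaf libraries was 0 CPM (counts divided by the library total and scaled to a common size), and when its median over the root libraries was among the 200 highest of such genes. Of the 107891 genes with TraesCS identifiers in the count tables, 47749 had a leaf median of 0 outside the study list, 14130 of these had a root median above 0, and 200 were taken. The members were chosen by these leaf and root levels, so the difference between the tissues is given as a description and was not tested.

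Bread wheat (Triticum aestivum) is a hexaploid whose A, B and D sub-genomes came from different grass ancestors, and most genes therefore exist as homoeologues on matching chromosomes. The identifier of a wheat gene carries its chromosome and its order along it. Roots take up water and ions, anchor the plant and meet soil microbes, and genes expressed in roots but not in leaves include members of large gene families that often lie in tandem arrays. The count tables do not pair identifiers with gene names, and the annotation used here held none of these identifiers, so no role is given for any member.

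RNA was sequenced from root and leaf tissue of untreated spring wheat seedlings, raised in peat moss under optimum conditions, of 24 cultivars that the study lists as released in Pakistan and of Gabo, Hope, S-24, Sonalika, TJ-83 and Zincol-2016, which are outside that list. The tables held 81 root libraries of 28 cultivar names and 82 leaf libraries of 30, with 2 or 3 root libraries per name. The study sowed seeds in triplicate, and nothing says whether the libraries of a name came from separate plants, so p-values measure the spread between these libraries, which may be technical. Between 8421545 and 11212584 reads were counted in a root library and between 8111979 and 10335230 in a leaf library.

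The libraries were compared on 241 genes that were either counted or nearly uncounted throughout the series, none of which was a member. Root libraries of the same name shared the state of a median 98.3% of these genes, against 67.5% for libraries of different names. Of the 81 root libraries, 51 shared at least 97% with another root library of their own name and 30 did not, and of the 80 leaf libraries with another of their name only 10 did. Names were used as deposited. The 51 matching libraries, of 20 names, were also used alone for the test between cultivars and for the summaries over cultivar means. Neither Pak-81 library is among them, since the pair shared 65.4%, nor is any library of C-271 (at most 93.1%), C-217, GA-2002, Maxipak-65, Pothowar-70, Seher-2006 or Ujala-2016, so values of these names have no such check. The tissues stood apart as labelled. The 12 root hair genes of the study list (COW1, RTH3, TaRSL4 and EXPB1) summed to a median of 162 CPM in root and 27.1 CPM in leaf. The ranges overlapped, at 16.7 to 473 and 0.222 to 157 CPM. Of these genes, 8 had a leaf median of 0, and their root medians were at most 0.471 CPM. The sums thus rest mostly on the others, which were also counted in leaf. The 3 PpD genes summed to at most 4.47 CPM in root and at least 22.9 CPM in leaf.

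The members together took a median of 2.24% of the counts of a root library, from 0.992% to 3.37%, and between 0.000152% and 0.00936% of a leaf library. In summed CPM, every root library was at 9923 or above and every leaf library at 93.6 or below. In these bulk tissues, fewer cells of a type and less RNA per cell cannot be told apart. For comparison, the 200 genes of highest leaf median among those with a root median of 0 summed to between 1.80 and 15.4 CPM in root and to at least 37800 CPM in leaf. A root library held counts on between 193 and 200 members, with a median of 200, and a leaf library on between 11 and 69, with a median of 30.

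Of the 200 members, 42 had no count in any of the 82 leaf libraries, and 104 never exceeded 3 counts in a leaf library, including those 42. The other 96 exceeded 3 counts in at least 1 leaf library. TraesCS5D02G388700 had the most leaf counts, 1031 over all leaf libraries, and 659 of these fell in Chakwal-97 replicate 2, at 67.0 CPM. The remaining members with the most leaf counts were TraesCS5A02G138700 with 517, TraesCS7A02G386800 with 416, TraesCS6D02G396600 with 394 and TraesCS6A02G009100 with 328. For TraesCS6A02G009100, 230 of the counts came from S-24 replicate 1. The largest count of TraesCS6D02G396600 in a leaf library was 87 and that of TraesCS7A02G386800 was 105, and these genes had counts in 37 and 36 leaf libraries, so not all 5 rested on a single library. The leaf library with the highest sum over the members was Chakwal-97 replicate 2.

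The most abundant member was TraesCS2B02G242000 on chromosome 2B, with a root CPM from 43.0 to 5407 and a median of 2002. It alone made up a median of 9.30% of the CPM on the members in a root library, from 0.371% to 25.3%, and the 10 most abundant members together made up a median of 28.2%. TraesCS6D02G373900 followed with a median of 765 CPM and a range of 209 to 2014. TraesCS1D02G388500 had a median of 606 CPM, from 125 to 1721. TraesCS2D02G222600 had a median of 572 CPM and a range from 3.92 to 2990, the largest of these 4 as a ratio of highest to lowest, without a count in any leaf library. The rest of the 10 were TraesCS4D02G010800, TraesCS4B02G352400, TraesCS2A02G573700, TraesCS6D02G004500, TraesCS1B02G024200 and TraesCS5A02G521000, with medians between 280 and 437 CPM.

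Levels between genes were compared per length, as TPM (the same scaling after division by gene length) computed from the counts and the gene lengths of the tables. Median root TPM of the members ran from 15.3 to 1981 with a median of 75.6, and 66 members reached 100 TPM. On this scale TraesCS2B02G242000 stayed first, TraesCS1D02G388500 was at 988 TPM, TraesCS2D02G222600 at 825 TPM, TraesCS4D02G010800 at 810 TPM and TraesCS6D02G373900 at 724 TPM. The boundary of the list was not a step in the CPM values. The last members inside were TraesCS1A02G265800 at 35.5 CPM, TraesCS6B02G288000 at 35.0 CPM and TraesCS1B02G340200 at 34.9 CPM, and the first genes outside were TraesCS4D02G361300 at 34.7 CPM, TraesCS3A02G180000 at 34.6 CPM and TraesCS3D02G437100 at 34.5 CPM. Of the 6133 genes at or above the root median of the last member, the members were 3.26%. The 30 genes of the study list that also had a leaf median of 0 all lay below the members, the highest being LRA1_7A at 8.92 CPM.

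**Figure D1:**
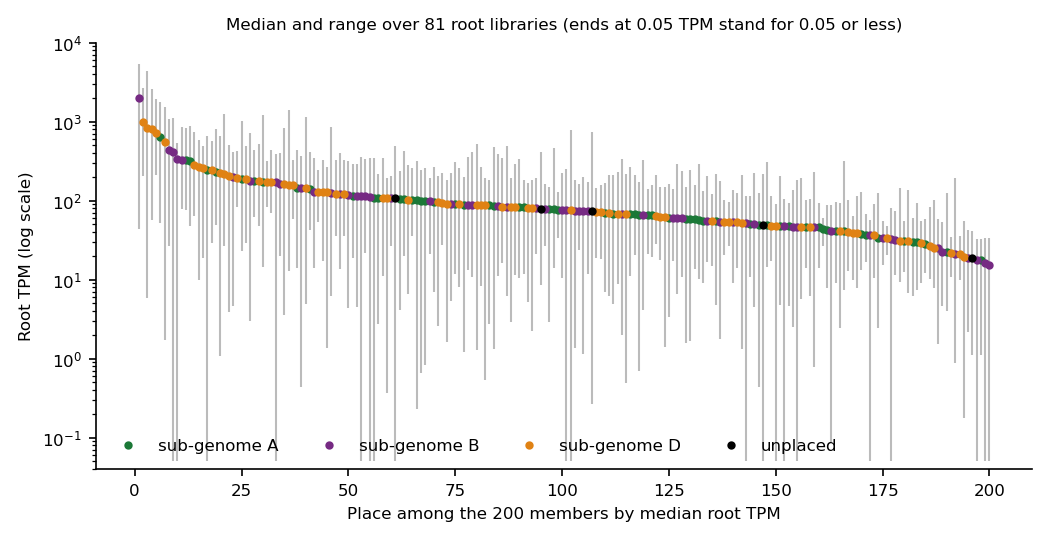
Median root TPM of each of the 200 members (points, coloured by sub-genome) with the lowest and highest of 81 root libraries (lines), on a log axis. Medians ran from 1981 TPM, with the next at 988 TPM, down to 15.3 TPM, and for 20 members the CPM of at least 1 root library was below 0.15.

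The share of root counts on the members varied between cultivar names. Gabo was lowest at 1.52% ± 0.413 (SD, n = 3), followed by Sonalika at 1.69% ± 0.625 (n = 3) and S-24 at 1.74% ± 0.288 (n = 3). Dirk was highest at 3.15% ± 0.321 (n = 2), above C-217 at 2.76% ± 0.277 (n = 3) and Pak-13 at 2.67% ± 0.0241 (n = 3). The mean over the 28 names was 2.24% with an SD of 0.360. Of the 27 pairs of neighbours in this order, 25 differed by less than the larger SD of the pair. Sorting by the mean brings neighbours close, so this gives no measure of whether names differ. In the matching libraries alone Gabo (1.52%) and S-24 (1.65%) were lowest and Dirk (3.15%) highest. The libraries of Gabo, the lowest name, ran from 1.16% to 1.97%, and those of Dirk, the highest, from 2.92% to 3.37%.

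**Figure D2:**
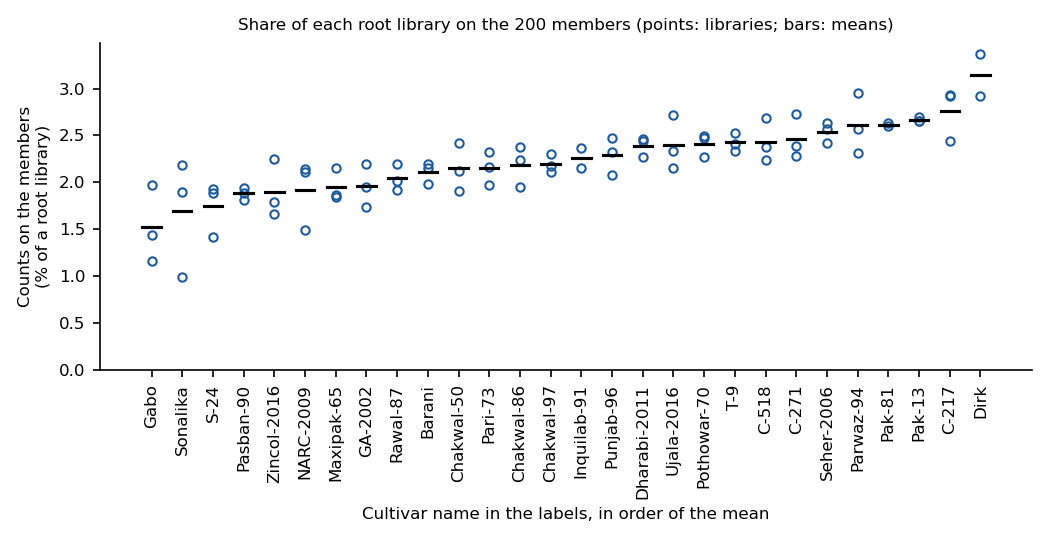
Percent of the counts of each root library that fell on the 200 members, by cultivar name in order of the mean (points are libraries, bars are means). Means rose from 1.52% in Gabo to 3.15% in Dirk, and Sonalika replicate 1 was the lowest library at 0.992%.

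A few root libraries were low for many members at once. In the median library, 10% of the members were below 0.5 times their own root median. In NARC-2009 replicate 1 this held for 124 members (62%), in Sonalika replicate 1 for 107 (53.5%), in NARC-2009 replicate 3 for 91 (45.5%) and in Gabo replicate 2 for 83 (41.5%). Among the other genes at or above the root level of the last member, the same libraries had 9.57%, 8.65%, 7.18% and 10.1% of genes below 0.5 times their median, against 3.15% in the median library. NARC-2009 had the lowest cultivar mean for 50 of the 200 members, Sonalika for 21 and Gabo for 20, while Pak-81 had the highest for 42 and Dirk for 27. The same counts over other genes are not given, so these are not shown to be particular to the members. The means of Pak-81 and Dirk rest on 2 libraries each. NARC-2009 replicates 1 and 3 shared all of the comparison genes with a library of their name, and NARC-2009 replicate 2 shared 65.2%. The Pak-81 libraries shared only 65.4% with each other. In the matching libraries alone, NARC-2009 was lowest for 71 members, Sonalika for 27 and Gabo for 19, and Dirk was highest for 46.

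The members were spread over all 21 chromosomes, with 5 on unplaced sequence. Sub-genome A held 63, B held 59 and D held 73, that is 31.5%, 29.5% and 36.5% of the members. Over all TraesCS genes the sub-genomes held 32.8%, 33.0% and 31.7%, and over the 14130 genes that met the leaf limit and were above 0 in root they held 30.9%, 34.0% and 33.2%. In counts, the balance was more uneven. The D members took 41.2% ± 1.20 of the CPM on the members (mean ± SD over 28 cultivar means), the B members 33.1% ± 3.23 and the A members 23.5% ± 2.53. In every root library the D members took at least 37.6%. Over all genes the D sub-genome took a median of 33.1% of a root library. Without TraesCS2B02G242000, an alternative added after the data were seen, the D share had a median of 45.5%, from 40.2% to 56.0%. The B share then had a median of 26.3%, close to the 25.8% of A. Leaving out a B gene can only raise the D share. Abundant D members such as TraesCS6D02G373900, TraesCS1D02G388500 and TraesCS2D02G222600 were not left out in turn. The median over members of their median root TPM was 67.3 for A, 74.2 for B and 83.9 for D.

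Chromosome 2B held the most members, 18, followed by 2A and 5D with 15 each, and 7B held the fewest with 3. Per 1000 genes of the tables, 2B had 2.95 members, 6D 2.75, 5D 2.70 and 2A 2.59, against 1.85 over all genes, 0.823 on 4A and 0.618 on 7B. Group 2 held 45 members and group 4 held 16. In gene order within chromosomes, 82 of the 195 placed members (42.1%) were in the first or last 10% of the genes of their chromosome, 41 at each end. The share was 23.6% over the genes that met the leaf limit and were above 0 in root, 15.5% over the other 5887 placed genes at or above the root level of the last member, and 18.7% over the 198 placed genes of the leaf-restricted list. These shares are descriptions, and gene order is not physical distance.

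**Figure D3:**
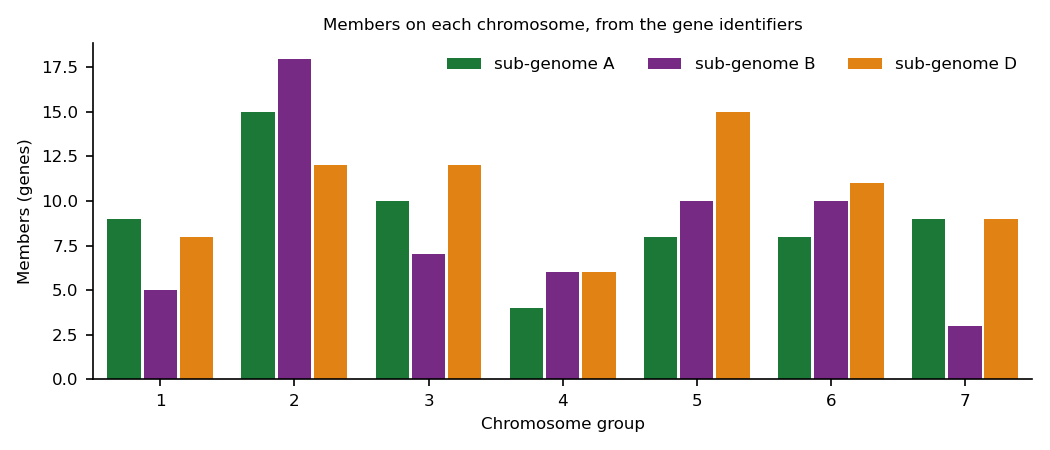
Number of members on each of the 21 chromosomes, by chromosome group and sub-genome, read from the gene identifiers. Counts ran from 3 on 7B to 18 on 2B, and the 5 unplaced members are not drawn.

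A tandem run was taken as 2 or more members with at most 5 other genes between neighbours. There were 18 such runs with 39 members, 16 of 2 genes, 1 of 3 and 1 of 4. The leaf-restricted list had 13 runs with 41 genes and a longest run of 7. The run of 4 lay near the end of chromosome 2A and held TraesCS2A02G572800, TraesCS2A02G573300, TraesCS2A02G573500 and TraesCS2A02G573700, with median root levels of 101, 55.6, 175 and 316 TPM. All had counts in every root library. TraesCS2A02G573500 and TraesCS2A02G573700 were both lowest in Sonalika and highest in Pak-81, with cultivar means from 69.1 to 377 CPM and from 98.4 to 735 CPM, whereas TraesCS2A02G572800 was lowest in S-24 at 4.63 CPM and highest in Chakwal-50 at 205 CPM. The end of chromosome 2B at the matching place held 2 runs, TraesCS2B02G613500 with TraesCS2B02G614100 and TraesCS2B02G615000 with TraesCS2B02G615100, at 45.7 to 74.2 TPM.

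The run of 3 was TraesCS7B02G456200, TraesCS7B02G456300 and TraesCS7B02G456400, adjacent genes and the only members on 7B. Their median root levels were 88.6, 113 and 178 TPM. TraesCS7B02G456300 had no count in any library of Chakwal-86 or Gabo, where TraesCS7B02G456200 reached 155 ± 23.2 TPM and 178 ± 151 TPM (SD, n = 3 each) and TraesCS7B02G456400 was at 25.4 ± 4.63 TPM and 18.4 ± 20.01 TPM. Adjacent members of a run thus differed in which cultivars counted them. Across the 28 cultivar means, the 25 pairs inside runs had a median Spearman correlation of CPM of 0.60, against 0.14 over all 19900 pairs of members, and 0.63 against 0.14 over the 20 names with matching libraries. These points share libraries, and near-identical copies can exchange short reads in counting.

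Homoeology was not given by the files and was not tested, but members could be paired by place. A pair on the same chromosome group and different sub-genomes was taken as positional partners when their relative places differed by at most 0.025 of the genes of the chromosome and their lengths by a ratio of at most 1.25. The same limits held for 52 of 89 pairs that the study list names as copies of the same gene. Among the members, 96 pairs met them, 4.94% of the 1944 pairs on the same group, against 0.968% of all such gene pairs. They involved 102 members, of which 29 had partners on both other sub-genomes, and 93 placed members had no partner among the 200. Levels of partners differed by a median ratio of 1.63 in TPM, from 1.01 to 13.7, and for 58 pairs by less than 2. The largest ratio was that of TraesCS6D02G373900 at 724 TPM and TraesCS6B02G429200 at 52.8 TPM. TraesCS6D02G373800, adjacent to the first, was also a partner of TraesCS6B02G429200, at a ratio of 1.66. Members in runs could enter several pairs, so the medians over pairs count some genes more than once. The median Spearman correlation of partners over cultivar means was 0.45, with 20 of the 96 pairs below 0, and 0.38 in the matching libraries. Of the 18 runs, 9 were linked by positional partners to another run, on 2A and 2B, 2B and 2D, 5B and 5D, and 6B and 6D.

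The study asked how root expression differed between cultivars, and that comparison was not used to choose the members. In the edgeR quasi-likelihood test of cultivar over 81 root libraries, 84.9% of the 64841 genes tested were past an adjusted p of 0.1, and 188 of the 200 members were (94%). Among the other genes at or above the root level of the last member the share was 95.3%. The median F statistic was 3.73 for the members, 2.87 for all genes tested and 3.92 for the other genes of that root level. The members called were thus close in share to the other genes at or above that root level. With the 51 matching libraries alone, 192 members were past the threshold against a background of 82.7%.

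The members had higher medians of both measures of spread than the other genes at or above the root level of the last member. That set has no upper limit and was not matched to the members in abundance. The coefficient of variation between replicate libraries that the fit estimated had a median of 0.393 for the members, 0.232 for all genes tested and 0.163 for the other genes of that root level. The coefficient of variation between cultivar means had medians of 42.1%, 30.7% and 20.7%, and of 45.3%, 32.9% and 22.01% in the matching libraries. On the log2(CPM + 1) scale, cultivar accounted for a median of 53.8% of the variance of a member. The share was 43.8% for all genes tested and 55.9% for the other genes of that root level. In the 51 matching libraries it was 66.9% for the members, with no value given for other genes. Those libraries were kept for agreeing with a namesake, so the 66.9% is not comparable with the other shares. The highest cultivar mean was a median of 7.31 times the lowest, and at least 10 times for 75 members. These ratios include names without matching libraries, such as Pak-81. They are not given for other genes, so they are not shown to be particular to the members. These medians were not tested.

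TraesCS3D02G382700 had the smallest p of the members. Its root CPM ran from 10.3 to 191 with a median of 77.9. Pak-81 libraries were at 10.8 and 13.9 CPM and Inquilab-91 libraries at 10.3 and 16.7 CPM, while NARC-2009 libraries were at 159, 109 and 191 CPM. The test over all cultivar names gave an adjusted p of 3.9e-21 (edgeR quasi-likelihood test with Benjamini-Hochberg adjustment). TraesCS5D02G490900 was lowest in Dirk at 10.5 CPM and highest in Sonalika at 137 CPM. TraesCS5A02G477100 ran from 7.22 CPM in Inquilab-91 to 111 CPM in Sonalika, and TraesCS1A02G015600 from 6.28 CPM in Pasban-90 to 203 CPM in Inquilab-91. TraesCS6A02G320700, TraesCS4A02G210100 and TraesCS4B02G182000 were all lowest in Pak-81, at 16.7, 15.8 and 6.25 CPM, and their highest means were 330, 89.4 and 124 CPM. Cultivar accounted for between 81.6% and 91.4% of the log-scale variance of these 7 genes and of TraesCS5D02G379300.

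TraesCS5D02G379300 had the largest coefficient of variation between cultivars, 115%. It had 0 and 20 counts in the Pak-81 libraries and 0.730 to 1.92 CPM in those of Ujala-2016, against 213, 218 and 309 CPM in C-271 and 440, 148 and 428 CPM in NARC-2009 (adjusted p = 5.5e-17, edgeR quasi-likelihood test). These cultivars were picked from the ends of the range after the values were seen, so their separation is a description. In the matching libraries alone, without Pak-81, TraesCS3D02G382700 and TraesCS5D02G379300 had adjusted p values of 8.9e-15 and 5.6e-15 (edgeR quasi-likelihood test).

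The most abundant member and the fourth shared their pattern over cultivars. TraesCS2B02G242000 was at 302, 43.0 and 324 CPM in Gabo and at 434 and 612 CPM in Pak-81, and at 3334, 3858 and 5395 CPM in C-271 (adjusted p = 7.0e-08, edgeR quasi-likelihood test). TraesCS2D02G222600 was at 13.4, 3.92 and 29.8 CPM in Gabo, at 22.4 and 36.0 CPM in Pak-81, and between 1739 and 2717 CPM in C-271 (adjusted p = 6.2e-14). The cultivar means of C-271 were 18.8 and 137 times those of Gabo. Gabo, Pak-81 and Chakwal-97 were the 3 lowest cultivars for both genes. The Spearman correlation over the 28 cultivar means was 0.96, and 0.92 over the 20 names with matching libraries, for a pair chosen after its values were seen. Neither Pak-81 nor C-271 is among those 20. The genes lay 0.0156 of a chromosome apart in relative place, but their lengths differed by a ratio of 1.47, outside the limit for positional partners.

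The other abundant members differed less between cultivars. TraesCS6D02G373900 ran from a mean of 376 CPM in S-24 to 1192 CPM in Punjab-96, TraesCS5A02G521000 from 185 CPM in C-518 to 492 CPM in Chakwal-97, and TraesCS4B02G352400 from 218 CPM in Barani to 758 CPM in Dirk. TraesCS1D02G388500 ran from 199 CPM in C-518 to 1318 CPM in Pak-81, and TraesCS4D02G010800 from 207 CPM in Maxipak-65 to 937 CPM in Parwaz-94. All 5 were past the threshold with all libraries, and each lost it when replicate 2 was left out, with adjusted p values of 0.13, 0.61, 0.27, 0.17 and 0.29 in the order named. TraesCS4B02G352400 and TraesCS4D02G010800 also lost it without replicate 1, with adjusted p values of 0.19 and 0.12. TraesCS6D02G004500 was lowest in Gabo at 54.7 CPM and highest in Chakwal-86 at 757 CPM, and TraesCS1B02G024200 lowest in NARC-2009 at 39.3 CPM and highest in S-24 at 551 CPM. Both kept an adjusted p under 0.1 in every alternative fit that tested them.

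**Figure D4:**
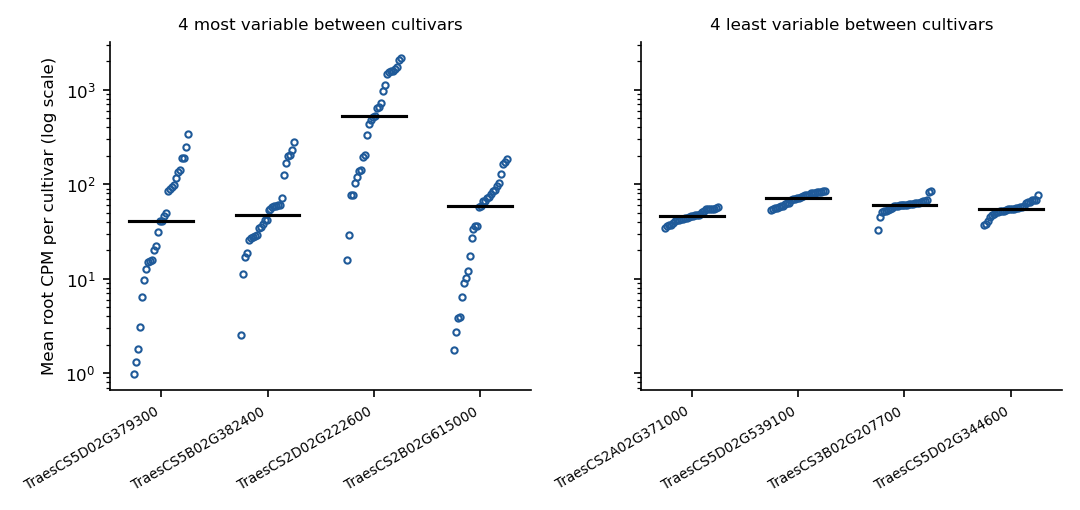
Mean root CPM of each of 28 cultivar names (points, in rising order, with the median as a bar) for the 4 members with the largest and the 4 with the smallest coefficient of variation between cultivar means, on a log axis. TraesCS5D02G379300 ran from 0.974 to 339 CPM, whereas TraesCS2A02G371000 ran from 34.7 to 57.7 CPM.

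The steadiest members varied little. TraesCS2A02G371000 was between 28.3 and 63.4 CPM in all 81 root libraries, with a coefficient of variation between cultivars of 14.3%, and TraesCS5D02G539100 was between 45.9 and 98.3 CPM with 14.7%. TraesCS5D02G344600 had 16.7%. These 3 were past the threshold with all libraries, with 1.60 to 2.08 times between the highest and lowest cultivar, and TraesCS5D02G539100 was not without replicate 2 (adjusted p = 0.13) or replicate 3 (adjusted p = 0.30). TraesCS3B02G207700, with 16.3%, had the largest adjusted p of the members, 0.93, and 0 counts in Gabo replicate 2. Without replicate 2 its adjusted p was 0.026, and with the 24 cultivars of the study list alone, which leave out Gabo, 9.5e-04 (edgeR quasi-likelihood test). It was 1 of 12 members that did not pass, 3 of which lay on 3B.

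Of the 200 members, 181 had counts in every root library and 20 were below 0.15 CPM in at least 1, in 74 pairs of gene and library. Such counts over other genes of that root level are not given, so they are not shown to be particular to the members. The 74 pairs fell in 43 combinations of gene and cultivar name. In 13 of these every library of the name was below the limit, and in 30 only some were. Of these 30, 15 had a library below the limit that itself did not match another of its name. Counting any library of the cultivar, below the limit or not, 19 were in cultivars with a library that did not match. Of all 81 root libraries, 30 did not match another of their name. That counts libraries and not combinations, so the shares are not directly comparable. Whether the names account for the mixed combinations was not tested. Without Gabo replicate 2 the number of members below 0.15 CPM in at least 1 library was 15, and in the 51 matching libraries it was 18.

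TraesCS7B02G456300 had no count in the 6 libraries of Chakwal-86 and Gabo, and 7.45 to 512 CPM in the 72 libraries above the limit, at least 4104-fold higher in Dirk, the highest cultivar, than the 3 counts over a cultivar's libraries that a count of 0 allows. It also had 0 counts in Seher-2006 replicate 2 and C-217 replicate 2 and 1 count in Rawal-87 replicate 1, while the other libraries of these names were between 128 and 345 CPM. Those 3 libraries shared 84.3%, 70.9% and 64.3% of the comparison genes with the nearest library of their name. The gene was past the threshold with all libraries (adjusted p = 2.7e-04, edgeR quasi-likelihood test) and not without replicate 3 (adjusted p = 0.23).

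TraesCS2B02G065500 was below the limit in the most libraries, 18 in 8 cultivars, with no count in Inquilab-91 and Pari-73 and at most 1 count per library in Chakwal-97 and Sonalika. In Chakwal-86 it was at 89.0, 98.2 and 83.6 CPM. TraesCS2B02G037900 had no count in C-518 and at most 1 count per library in C-271, and between 15.4 and 158 CPM in the 73 libraries above the limit. It was also at 0 in Maxipak-65 replicate 2 and Sonalika replicate 1, which shared 77.1% and 60.2% of the comparison genes with their nearest namesake. TraesCS5B02G540000 was below the limit in every C-518 library and in 7 libraries in all, and lost its call without replicate 2 (adjusted p = 0.19).

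TraesCS1B02G107400 had no count in the 3 Pasban-90 libraries and TraesCS1B02G042600 had 0, 1 and 1 counts there. Both were also at 0 in Barani replicate 2, although the other Barani libraries held 74.4 and 45.0 CPM of the first and 69.0 and 51.8 CPM of the second. TraesCS2B02G551700 had 0, 0 and 1 counts in Chakwal-86 and 1 count in Maxipak-65 replicate 2, against 346 and 566 CPM in Pak-81. TraesCS2B02G613500 had 0, 1 and 1 counts in Zincol-2016 and at least 8.28 CPM elsewhere. Adjusted p values of these 4 genes were between 1.8e-08 and 0.0047 (edgeR quasi-likelihood test). TraesCS1B02G107400 was not past the threshold without replicate 1 (adjusted p = 0.18) or replicate 3 (adjusted p = 0.11), nor was TraesCS2B02G551700 (adjusted p = 0.17 and 0.52).

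**Figure D5:**
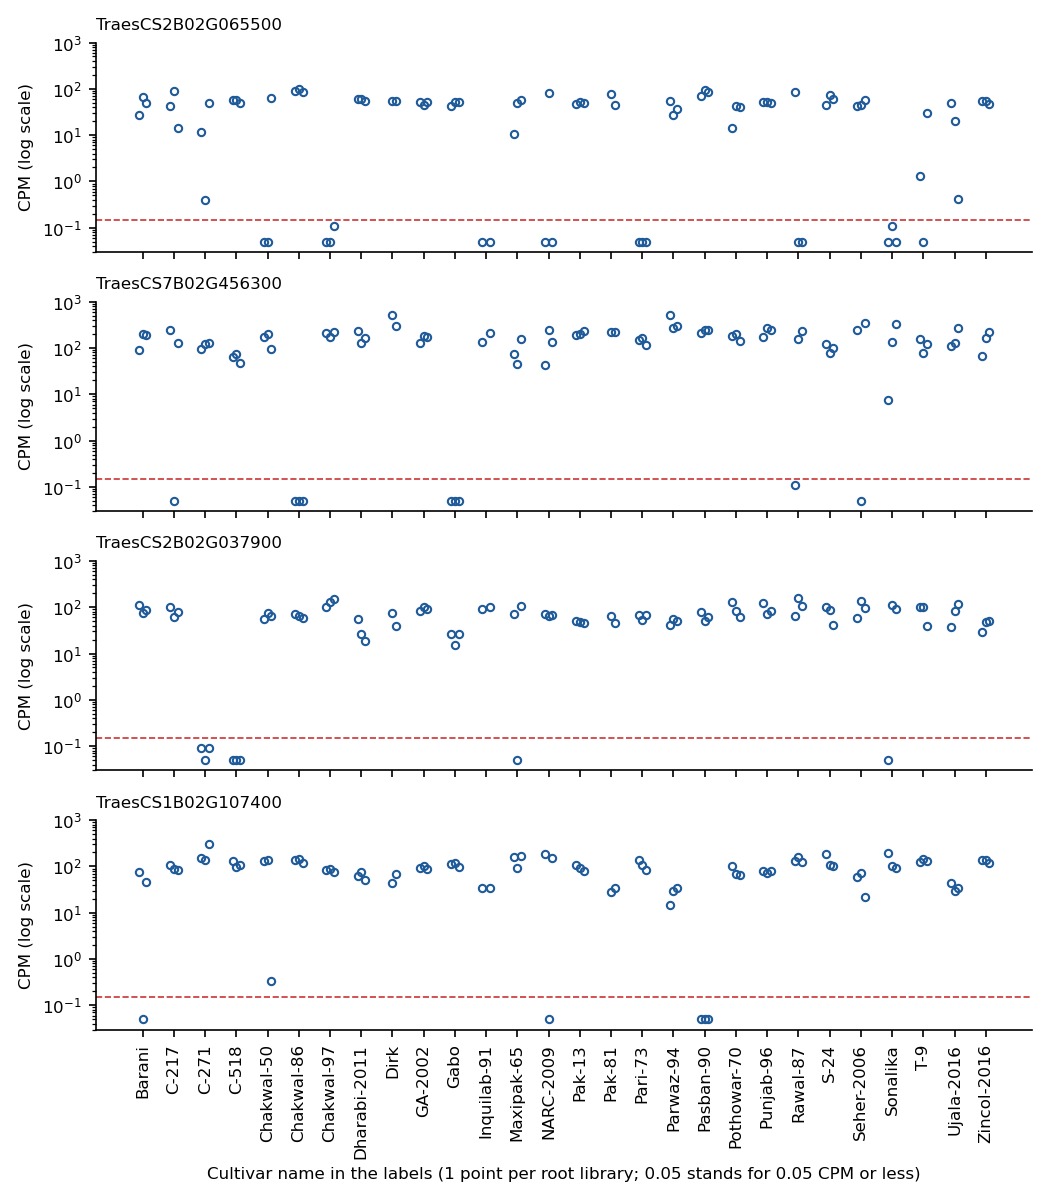
Root CPM of the 4 members that had no count in all libraries of at least 1 cultivar name, 1 point per library on a log axis, with values of 0.05 CPM or less drawn at 0.05 and the limit of 0.15 CPM as a dashed line. Whole cultivars lay below the limit, such as Pasban-90 for TraesCS1B02G107400, and so did single libraries of other names, such as Barani replicate 2.

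Most neighbours of these genes were counted, but in many pairs several were not. For each of the 74 pairs, up to 40 genes next to the member with a root median of at least 5 CPM were looked at in the same library. At least 10 of them were below 0.15 CPM in 8 pairs, between 1 and 9 in 63 and none in 3. Among the 63 were TraesCS1B02G107400 and TraesCS1B02G042600, with 5 to 7 in the Pasban-90 libraries and 6 in Barani replicate 2. TraesCS2A02G048500 in S-24 replicate 1 had 9 and TraesCS6D02G396600 in Chakwal-50 replicate 2 had 8. For TraesCS2B02G065500 the number was only 1 or 2 in each library. The 8 pairs with at least 10 were the 3 Zincol-2016 libraries for TraesCS2B02G613500, with 10 to 14, and 5 members on 3B in Gabo replicate 2, with 29 to 36. In that library TraesCS3B02G038300, TraesCS3B02G038600, TraesCS3B02G199200, TraesCS3B02G207700 and TraesCS3B02G209700 had 0 counts and TraesCS3B02G034300 had 3 counts, while TraesCS3B02G539100, further along the chromosome, was at 21.8 CPM. Gabo replicates 1 and 3 had at least 20.9 CPM of each of these 7 genes. Of the 1648 genes on 3B with a root median of at least 5 CPM, 26.7% were below 0.15 CPM in Gabo replicate 2. This share was at most 1.52% in any other root library and 0.485% in the median library. Gabo replicate 2 shared 99.1% of the comparison genes with another Gabo library.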

How the data were processed

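Counts are whole reads per gene as the authors deposited them, 1 table per cultivar and tissue, made with featureCounts after alignment of single-end reads from poly(A) RNA. The deposited tpm files were not used, and 2 of them were truncated. Reads shared by near-identical homoeologues or tandem copies may have been split or dropped, and the setting is not given in the sources used here.

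CPM used the total of all rows, of which 12853 noncoding rows held 0.0179%. The members, lists and tests were chosen with earlier results of these data known. Cultivars were compared with edgeR 4.0.16 in R 4.3.3 (TMM, filterByExpr, quasi-likelihood F-test on cultivar, Benjamini-Hochberg adjustment over 64841 genes, threshold 0.1), with 53 residual degrees of freedom. DESeq2 1.42.0, other filters, scalings, replicate sets and a replicate block were alternatives. On simulated data for the comparison of cultivars in root, run on 60984 genes, 197 of 200 changed genes were recovered with 18 false calls. Every gene was simulated at the common coefficient of variation between replicates, 0.282, and without mismatched libraries. The members had a median of 0.393, so this recovery does not measure that of the test on the members. A gene was taken as counted above 2 CPM and nearly uncounted below 0.15 CPM when libraries were compared. A count of 0 allows up to 3 counts, which covers counting error only. The genes named were the 10 most abundant members, those beside place 200, the run of 4, the 8 with the smallest p, the 8 with the widest cultivar range, the 4 steadiest, those without a count in all libraries of a cultivar and the 5 with the most leaf counts. Other members were named after their values were seen.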

Additional observations from a re-analysis of the deposited data

How the results depend on the processing

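In 11 alternatives, between 150 and 195 of the members were past the threshold between cultivars, against 188, with backgrounds of 59.8% to 89.2%. The lowest count and lowest background among the fits that left out a replicate number came without replicate 3, 150 members and 37968 genes against 55071, and the highest counts were 173 members and 45241 genes. With DESeq2 194 members were past it, and with at least 10 counts in every library 157 of 160, with 30085 genes. Of the 397 adjusted p values of named members under alternatives, 371 kept their side of the threshold, 24 lost it and 2 gained it. The replicate block gave 189 members and 54734 genes. Deviations from cultivar means had a median correlation of 0.0087 for the same replicate number and -0.0052 for other numbers. A median near 0 cannot show whether the numbers pair the libraries of some cultivars. The list itself depended on its rule. Of the 200 members, 132 were kept by medians over cultivar means, 42 by no count in any leaf library, 143 by TPM and 188 by the 24 listed cultivars. With no other gene between neighbours, 19 members were in tandem runs, against 39. The share of a root library on the members was 2.74% in TPM, against 2.24% in CPM. No other depth was tried. With the matching libraries alone, 192 members and 52340 genes were past the threshold. The causes were not tested.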
